A study of Mus musculus with 8 samples.

Results

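Gene expression in cells of secondary neurospheres that overexpress NFIA was set against that in control cells of the same kind of sphere. The comparison uses 4 of the 8 arrays of the study, chosen by their sample titles: 2 of NFIA cells (SN_NFIA) and 2 of control cells (SN_control). Neurospheres are floating clusters of neural stem and progenitor cells, grown here from mouse embryonic stem cells by way of embryoid bodies. NFIA cells and control cells grew in the same spheres and were parted by fluorescence-activated sorting before RNA was taken. Both groups were at passage 1, 12 days after the embryoid bodies. Primary neurospheres (PN_NFIA and PN_control, passage 0, 6 days, 2 arrays each) served for the estimate of the spread and for the difference between passages. The promoter that drives NFIA, the marker used for sorting and the number of clones behind each line are not given in the sources used here. Nothing in the labels says that equally titled samples came from separate cultures, so p-values measure the spread between these samples, which may be technical.

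NFIA is a transcription factor of the nuclear factor I family, whose members bind DNA as dimers through TTGGC sites. In the developing central nervous system it appears in radial glia as they pass from making neurons to making glia, and acts with SOX9 on early astrocyte genes. Notch, JAK-STAT and BMP signals take part in the same switch and act on astrocyte genes such as Gfap.

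The labels and files of this series conflict in 2 ways. For 7 of the 8 samples, SN_NFIA 1 and 2 and SN_control 1 and 2 among them, the scanner file attached to the sample is not the array in its column of the authors' value table. Columns correlated with their best scanner file at 0.998 or more and with the next best at 0.335 or less, and arrays are assigned here as in the value table. With files as attached, 0 genes passed the test in limma (522 at an unadjusted p under 0.05), and of the genes called below and measured there, 3 of 45 that rose and 0 of 56 that fell kept their direction. The source names also go against the titles: SN_control 1 and 2 and SN_NFIA 1 carry the NFIA line, and SN_NFIA 2 carries WT. Groups here follow the titles. By source name, 0 genes rose and 42 fell in limma (1140 at an unadjusted p under 0.05). Of the genes called by title and measured there, 0 of 67 that rose and 0 of 56 that fell kept their direction, so every one of those calls turns its sign. The WT cells of secondary neurospheres are then SN_NFIA 2 alone. The median difference of astrocyte genes, 1.74 by title, is -1.60 by source name and -0.86 with files as attached, and that of neuronal genes, -0.99 by title, is 1.34 and 1.01. Each signed difference below holds only if the titles and the value table are right, which the files do not settle. All 8 arrays lay on 1 slide, with passage along its rows and NFIA along its columns, so position on the slide cannot be told apart from either. A difference between the cell lines behind the NFIA and control cells cannot be told apart from NFIA.

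On each array 45.4% to 56.4% of spots stood well above background, 0 were saturated, and 13790 genes entered the test. The number of arrays limits the precision. All 8 neural stem and progenitor markers checked (Sox2, Nes, Pax6, Fabp7, Msi1, Vim, Slc1a3 and Hes5) were well above background on every secondary array. Over all genes SN_NFIA 1 and 2 correlated at 0.964, and SN_control 1 and 2 at 0.944. SN_control 1 correlated more closely with the 4 primary arrays (0.957 to 0.964) than with SN_control 2. Levels below are log2 signals relative to the 75th percentile of their array, and differences are SN_NFIA minus SN_control in log2, ± SE from limma. Each group has 2 arrays, and adjusted p is by Benjamini-Hochberg over the 13790 genes. For a gene that no array of the lower group had well above background, the fold is a bound, written "at least", that sets the higher group's mean against the lowest signal well above background on each array.

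Nfia itself was higher in both NFIA arrays than in both control arrays, but did not pass the test. Its brighter probe read 1.70 and 1.62 in SN_NFIA, against 1.00 and 0.61 in SN_control. The difference was 0.85 ± 0.48 (adjusted p = 0.464, limma), and the 2 groups did not overlap. A dimmer second probe read -0.08 and -1.11 in SN_NFIA, against -1.68 and -3.19 in SN_control, a difference of 1.84. Whether either probe lies in the introduced sequence is not known here. The other 3 family members were also higher by their means. Nfix, the closest to passing, read 1.96 and 2.75 in SN_NFIA against 0.13 and 0.99 in SN_control (1.80 ± 0.70, adjusted p = 0.291, limma), and it rose as paired arrays, the 1 of 4 to do so. Nfic differed by 0.72 and Nfib by 0.72, and the Nfib arrays overlapped.

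In all, 67 genes rose and 62 fell in SN_NFIA cells at an adjusted p under 0.05, which is 0.486% and 0.45% of the genes tested, and 2081 had an unadjusted p under 0.05. Their median difference was 2.75 for the genes that rose and -2.96 for those that fell, and the smallest called difference was 1.52 in size. Equally numbered arrays varied together, so the comparison was also fitted with them as pairs (a replicate block). That fit called 380 genes that rose and 266 that fell, 2.76% and 1.93% of those tested, among them 66 of the 67 and 60 of the 62. All 129 called genes differed in the same direction in both pairs, by at least 1.33 in the smaller of the 2 pair differences. In primary neurospheres 61 of the 67 that rose also had a positive difference, and 12 passed the test there, where 0.312% of genes rose and 0.0% fell. Of the 62 that fell, 36 had a negative difference in primary neurospheres and 0 fell there by the test, while Fam162b rose (2.29 ± 0.29 in primary and -1.83 ± 0.29 in secondary neurospheres). Over all genes 5891 of 13790 had a positive difference in primary neurospheres, so a negative one was the more common there. The 36 of 62 is thus near the share of all genes. The 4 secondary arrays fitted alone gave 0 calls in limma (1393 genes at an unadjusted p under 0.05), so the calls rest on a spread shared with the primary arrays. Without SN_NFIA 2, 4 genes rose and 3 fell, without SN_NFIA 1 12 and 9, without SN_control 1 16 and 39, and without SN_control 2 282 and 173. Without either PN_control array 6 rose and 4 fell, and without either PN_NFIA array 39 and 33. Of the called genes 51.9% were higher, and 73.0% with normexp background correction.

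**Figure D1:**
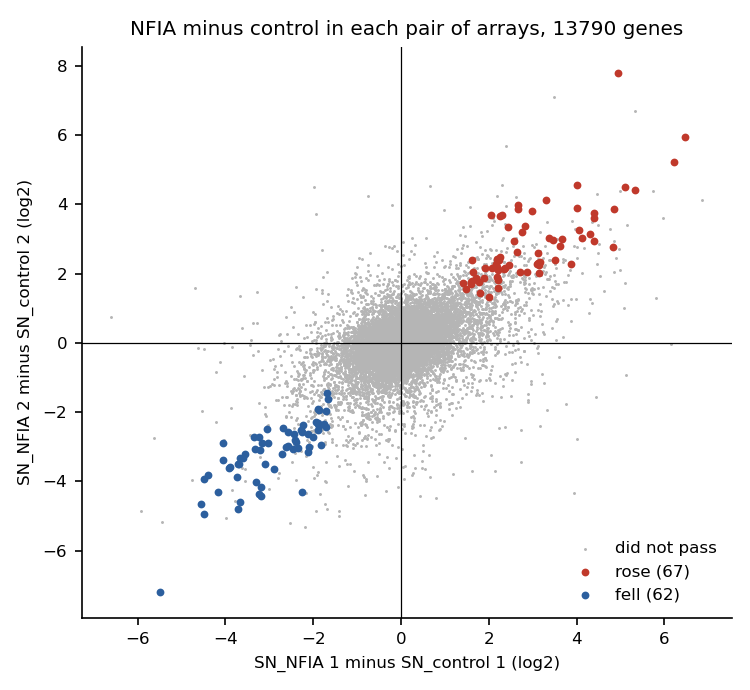
Difference between NFIA and control cells in log2 for arrays numbered 1 (x axis) and arrays numbered 2 (y axis), 1 point per gene for 13790 genes. The 67 genes that rose (red) and the 62 that fell (blue) lie in the same quadrant for both pairs, at 1.33 or more from 0.

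The 12 genes that rose most span secreted proteins, channels and transporters. Dcpp3, a gene of secreted proteins of glandular tissue, read -0.49 and 2.45 in SN_NFIA, against -5.43 and -5.35 in SN_control (at least 20.4-fold, adjusted p = 0.0497). Serpinb5, the serine protease inhibitor maspin, read 1.04 and 0.05 against -5.44 and -5.89 in SN_control (at least 15.1-fold, adjusted p = 0.00454). Myh8, a skeletal muscle myosin heavy chain gene, read 4.61 and 4.72 in SN_NFIA against -1.60 and -0.51 in SN_control (5.72 ± 0.56, adjusted p = 0.0156). In these genes both NFIA arrays lie far above both control arrays, and Dcpp3 is also the most uneven between its NFIA arrays. Sftpc, a lung surfactant protein gene, was at least 11.1-fold higher (adjusted p = 0.0195). Dcpp3 and Sftpc passed the filter on probes through SN_NFIA alone, which by itself favours a higher reading in SN_NFIA. How many other rises entered in this way was not counted. Rbp4, the retinol carrier of blood plasma, read 3.56 and 4.84 in SN_NFIA against -1.54 and 0.34 in SN_control (4.80 ± 0.66, adjusted p = 0.0364). Scube2, a secreted protein that helps release Hedgehog ligands, read 4.70 and 4.41 in SN_NFIA against 0.31 and 0.67 in SN_control (4.07 ± 0.39, adjusted p = 0.0156). Abca8a, a lipid transporter gene of the ABC family, was at least 3.97-fold higher (adjusted p = 0.00454), with both SN_NFIA arrays within -1.43 to -1.32. Prokr1, a receptor of prokineticins, was at least 3.69-fold higher, Kcnt1, a sodium-activated potassium channel, at least 9.20-fold, and Cacng5, which regulates AMPA receptors, at least 5.05-fold. Thbs2, a matrix protein made by many cells including astrocytes, differed by 3.80 ± 0.57, and Gm5800, a predicted gene, was at least 4.17-fold higher. Of these 12, Serpinb5, Myh8 and Abca8a also rose in primary neurospheres (3.52, 5.64 and 2.86).

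Promoters of the genes that rose were read for the NFI site TTGGC on both strands (GCCAA on the other), in RefSeq windows of 250 bases before to 50 after a transcript start (GRCm38.p6). A window was at hand for 48 of the 67 genes that rose and 30 of them held it (62.5%), against 25 of 47 genes that fell (53.2%) and 6068 of 10958 genes tested (55.4%). Over all 32851 windows of the table the share was 46.7%. The full palindrome, 2 such sites facing each other 5 bases apart, was in 0 of the 48 and 0 of the 47, and in 4 of the 10958. A match is a description of letters, with no measurement of binding behind it. The 3 windows with most sites among the 12 genes that rose most are shown because they stand next to large rises, with each site in capitals: Myh8 (chr11:67276874-67277173, plus strand, 4 sites), Rbp4 (chr19:38125272-38125571, minus strand, 4 sites) and Abca8a (chr11:110095888-110096187, minus strand, 3 sites).
Myh8: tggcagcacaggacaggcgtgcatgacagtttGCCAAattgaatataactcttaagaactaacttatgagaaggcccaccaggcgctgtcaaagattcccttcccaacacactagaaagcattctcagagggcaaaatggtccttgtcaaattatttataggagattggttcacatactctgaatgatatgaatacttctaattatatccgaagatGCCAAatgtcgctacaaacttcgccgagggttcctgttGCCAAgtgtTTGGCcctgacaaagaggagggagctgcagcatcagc
Rbp4: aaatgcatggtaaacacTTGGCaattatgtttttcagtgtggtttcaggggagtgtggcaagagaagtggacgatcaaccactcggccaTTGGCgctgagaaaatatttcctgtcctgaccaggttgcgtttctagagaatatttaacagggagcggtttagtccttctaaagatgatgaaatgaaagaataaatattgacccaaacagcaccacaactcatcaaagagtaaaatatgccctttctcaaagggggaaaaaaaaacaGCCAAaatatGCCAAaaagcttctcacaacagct
Abca8a: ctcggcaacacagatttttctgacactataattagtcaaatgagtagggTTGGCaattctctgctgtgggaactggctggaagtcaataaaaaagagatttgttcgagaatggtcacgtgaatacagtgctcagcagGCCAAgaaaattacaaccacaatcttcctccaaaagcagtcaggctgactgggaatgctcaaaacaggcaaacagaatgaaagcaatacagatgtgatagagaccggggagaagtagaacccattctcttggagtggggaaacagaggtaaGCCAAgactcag

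**Figure D2:**
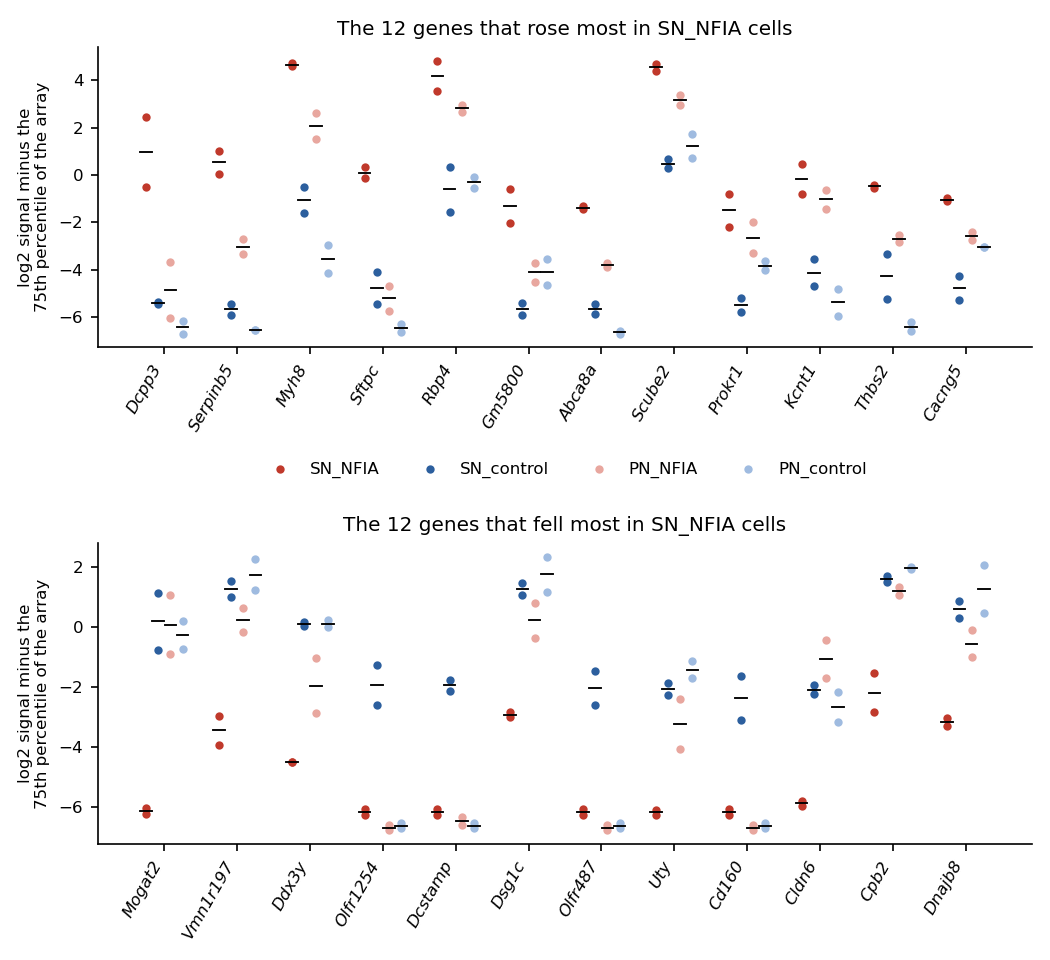
Log2 signal relative to the 75th percentile of the array (y axis) for the 12 genes that rose most (top) and the 12 that fell most (bottom) in SN_NFIA cells, 1 point per array and a bar at the mean of 2, with groups ordered SN_NFIA, SN_control, PN_NFIA and PN_control. Each gene's SN_NFIA points lie on 1 side of its SN_control points. Olfr1254, Dcstamp, Olfr487 and Cd160 are raised in the SN_control arrays alone, the group through which they passed the filter on probes. Dcpp3 and Sftpc passed that filter through SN_NFIA alone.

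Astrocyte genes stood higher in SN_NFIA cells across most of the list, although 1 of 38 tested passed. Of the 38, 36 had a positive difference, against 48.5% of all genes, and the median was 1.74, against -0.02 for all genes. In 23 of them both NFIA arrays lay above both control arrays, against 19.2% of all genes. Acsbg1, an acyl-CoA synthetase of astrocytes, rose by 1.79 ± 0.26 (adjusted p = 0.0402, limma), with 2.18 and 2.46 in SN_NFIA against 0.46 and 0.59 in SN_control. As paired arrays, 9 passed, among them Gfap, Aqp4, Aldoc, Clu, Apoe, Acsbg1, Atp1b2 and Timp3. Gfap, the intermediate filament of mature astrocytes, read -3.28 and -0.38 in SN_NFIA against -5.40 and -3.91 in SN_control, and was well above background in the NFIA arrays alone. Aldoc, a glycolytic enzyme of astrocytes, read 7.21 and 8.35 in SN_NFIA against 3.53 and 6.02 in SN_control (3.01 ± 0.84, adjusted p = 0.15). Apoe, the lipid carrier secreted by astrocytes, read 4.80 and 8.20 in SN_NFIA against 2.18 and 5.27 in SN_control. The level of Apoe differed between the arrays numbered 1 and 2 by about as much as between NFIA and control, so its groups overlapped while its pair differences were 2.63 and 2.92. Aqp4, the water channel of astrocyte endfeet, differed more between array numbers than between NFIA and control, and its groups also overlapped. It read -1.42 and 2.62 in SN_NFIA against -4.50 and 0.64 in SN_control, and its difference was -0.05 without SN_control 1. Slc1a3, the glutamate transporter GLAST, differed by 1.85 ± 0.48 (adjusted p = 0.127), and Slc1a2, the transporter GLT-1 of mature astrocytes, by -0.20 with overlapping arrays. The median of the list was 0.91 in primary neurospheres. In bulk RNA of sorted cells, fewer cells of a type and less RNA per cell cannot be told apart, here and below. Without SN_control 1, 0 astrocyte genes passed and the median was 1.01, and without SN_control 2 7 passed and it was 2.21. Without SN_NFIA 1 or SN_NFIA 2, 0 passed, with medians of 2.05 and 1.1.

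Of early glial genes that SOX9 and NFIA act on, all 6 had a positive difference and 0 passed, with a median of 1.06, while as paired arrays Atf3 rose (2.62). Sox9 read 2.08 and 2.19 in SN_NFIA against 1.52 and 1.06 in SN_control (0.85 ± 0.27, adjusted p = 0.212, limma). Zcchc24 differed by 1.03 ± 0.39 and Mmd2, whose arrays overlapped, by 1.94 ± 0.96. Among 21 genes of neural stem cells and radial glia 0 passed, also as paired arrays, and the median was 0.18 (0.66 without SN_control 1). Sox2 read 2.99 and 2.96 in SN_NFIA against 2.68 and 2.62 in SN_control, and Nes and Pax6 overlapped between the groups. Hes5, a Notch target of radial glia, read 6.44 and 7.20 in SN_NFIA against 6.00 and 5.28 in SN_control (1.18 ± 0.37, adjusted p = 0.199). Fabp7, the brain lipid-binding protein of radial glia, differed by 1.22 ± 0.50 (adjusted p = 0.314).

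The oligodendrocyte lineage varied more between array numbers than between NFIA and control. Gpr17, a receptor of committed precursors, read -1.12 and 5.49 in SN_NFIA against 0.54 and 7.43 in SN_control. The mean level of the 19 genes tested was 0.59 and 2.54 in SN_NFIA against 0.23 and 3.63 in SN_control, higher in both arrays numbered 2. Mbp, the myelin basic protein gene, was the 1 of 19 that fell, with 0.17 and 0.09 in SN_NFIA against 1.93 and 2.44 in SN_control (-2.05 ± 0.30, adjusted p = 0.0414, limma). Of its other 2 probes, one read -4.81 and 0.94 in SN_NFIA against -3.87 and 3.21 in SN_control, with overlapping groups, and one -4.61 and -3.55 in SN_NFIA against -1.69 and -1.68 in SN_control. With the mean of probes 0 of the 19 fell. As paired arrays Mbp, Gpr17 and Bcas1 fell. Olig2, the lineage's transcription factor, overlapped between the groups, with 1.94 and 3.47 in SN_NFIA against 0.53 and 2.46 in SN_control. The median of the list was -0.22. It was 1.45 without SN_control 2, -1.74 without SN_control 1, 0.76 without SN_NFIA 1 and -0.85 without SN_NFIA 2.

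**Figure D3:**
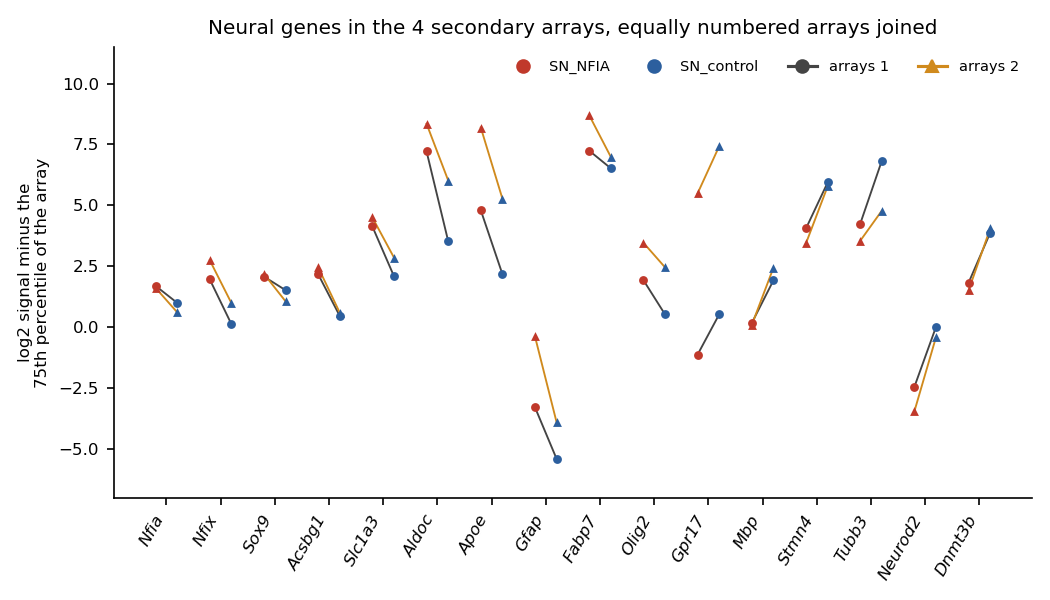
Log2 signal relative to the 75th percentile of the array (y axis) for 16 neural genes in the 4 secondary arrays, SN_NFIA (red) left of SN_control (blue), with lines joining equally numbered arrays (circles 1, triangles 2). Both lines slope the same way for each gene, while Gpr17, Apoe, Gfap and Olig2 lie higher in both arrays numbered 2.

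Most genes of neurogenesis and of neurons stood lower in SN_NFIA cells, and 4 of them passed the test. Of 22 proneural and neurogenic genes, 20 had a negative difference, with a median of -1.23, and 2 fell. Neurod2, a basic helix-loop-helix factor of differentiating neurons, read -2.44 and -3.45 in SN_NFIA against 0.02 and -0.40 in SN_control (-2.76 ± 0.39, adjusted p = 0.0376, limma). St18, a zinc finger factor of the Myt1 family, fell by 2.60 on the log2 scale (SE 0.39, adjusted p = 0.0418). As paired arrays Eomes (-2.11), Dll3 (-1.61), Elavl4 (-2.08) and Mfng (-1.91) fell too. Eomes, the factor of intermediate progenitors, read -2.57 and -3.09 in SN_NFIA against -0.51 and -0.92 in SN_control. The arrays of the proneural factor Neurog2 overlapped between the groups. In 10 of the 22 both NFIA arrays lay below both control arrays, against 19.7% of all genes. On both SN_NFIA arrays 16 of the 22 were well above background, against 19 on both SN_control arrays. Restricted to the 16 genes well above background on all 4 secondary arrays, the median was -0.59 and 1 fell. With normexp background correction it was -0.67, and with no filter on dim probes -0.73. The median was -0.11 without SN_control 1 and -0.57 without SN_NFIA 2, with 0 calls in either case, and -1.89 without SN_control 2.

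Of 35 neuronal genes 29 had a negative difference, with a median of -0.99, and 2 fell. Syt4, a synaptotagmin of vesicles, was at least 2.18-fold lower (adjusted p = 0.0256, limma), with -5.54 and -5.89 in SN_NFIA against -2.50 and -3.01 in SN_control. Stmn4, a microtubule regulator of neurons, read 4.05 and 3.44 in SN_NFIA against 5.94 and 5.78 in SN_control (-2.11 ± 0.29, adjusted p = 0.0366). As paired arrays 8 fell, among them Stmn2 (-1.83), the vesicular glutamate transporter gene Slc17a6 (-1.95) and the inhibitory vesicle transporter gene Slc32a1 (-2.22). Tubb3, the neuronal tubulin, read 4.24 and 3.54 in SN_NFIA against 6.84 and 4.79 in SN_control (-1.92 ± 0.62, adjusted p = 0.21). Rbfox3, the neuronal splicing factor NeuN, lay the other way, with 3.03 and 2.20 in SN_NFIA against 1.50 and 0.98 in SN_control (1.37, adjusted p = 0.21). Without SN_control 1, 0 neuronal genes fell and the median was -0.42, and without SN_control 2 4 fell and it was -1.73. Without either SN_NFIA array 0 fell.

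Genes of early progenitors, most active in young neural tissue, were lower for 12 of 14, and 0 passed in limma. The median was -1.41, and 10 of the 14 had both NFIA arrays below both control arrays, against 19.7% of all genes. Without SN_NFIA 2 the median was -0.89. Dnmt3b, a de novo DNA methyltransferase, read 1.83 and 1.51 in SN_NFIA against 3.88 and 4.06 in SN_control (-2.30 ± 0.38, adjusted p = 0.0504, limma). Lin28a, which blocks let-7 maturation, read -1.14 and -1.58 in SN_NFIA against 1.65 and 2.33 in SN_control (-3.35 ± 0.65, adjusted p = 0.0697), and its relative Lin28b differed by -2.32 ± 0.53. As paired arrays these 3 fell, as did the let-7 target Hmga1 (-1.68), Igf2bp1 (-1.27) and Arid3b (-1.62). In primary neurospheres the median of the list was -0.11. Among 32 cell cycle genes 31 had a negative difference, with a median of -0.60, and 0 passed. Mki67 read 4.07 and 4.07 in SN_NFIA against 4.59 and 4.56 in SN_control (-0.50 ± 0.23, adjusted p = 0.367). As paired arrays the replication licensing genes Mcm3 (-1.33) and Mcm5 (-1.13) fell and Ccnd2 rose (1.1). Forebrain patterning genes had a median of -0.79 with 0 of 17 past the test, and as paired arrays Dlx2 (-1.96) and Gsx1 (-1.88) fell. That median was -2.02 without SN_control 2, -0.26 without SN_NFIA 2 and 0.25 without SN_control 1, whose Dlx2 stood at 4.28 against 0.90 in SN_control 2. Caudal and HOX genes had a median of 0.60 with 0 of 30 past the test, and as paired arrays 3 rose, among them Pax8 (2.64) and Hoxb7 (1.75), and Dbx1 (-2.48) fell. That median was -0.24 without SN_NFIA 1, 1.16 without SN_NFIA 2, 0.90 without SN_control 1 and 0.16 without SN_control 2.

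Signalling genes moved in small numbers. In the BMP pathway Id3, a target of BMP signals, read 4.74 and 4.85 in SN_NFIA against 2.53 and 2.74 in SN_control (2.16 ± 0.24, adjusted p = 0.0221, limma). Smad9, a receptor-regulated SMAD of the pathway, was at least 1.39-fold higher (adjusted p = 0.0181), and these were the 2 of 22 that passed. Id1 joined them as paired arrays (1.89). Wnt5b, a Wnt ligand, rose by 1.62 ± 0.26 (adjusted p = 0.0485), with 3.06 and 2.73 in SN_NFIA against 1.26 and 1.29 in SN_control, as 1 of 38 Wnt genes. As paired arrays the Wnt inhibitor Wif1 (3.92) and the receptor Fzd9 (2.13) rose, and the inhibitor Dkk1 fell (-2.26). Etv4, an ETS factor downstream of FGF receptors, read 4.09 and 3.79 in SN_NFIA against 2.32 and 2.02 in SN_control (1.77 ± 0.28, adjusted p = 0.0438). The ligand Fgf5 read -3.06 and -3.78 in SN_NFIA against 0.12 and 0.39 in SN_control (-3.68 ± 0.42, adjusted p = 0.0229), so 1 of the 27 genes on the FGF and IGF list rose and 1 fell. Outside this list, the ligand Fgf4 also fell by the test and is given below with the pluripotency genes. The ligands Fgf1 (3.63) and Fgf9 (1.94) rose and Fgf8 (-2.08) fell as paired arrays.

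JAK-STAT genes had a median of 0.69 and 0 of 23 passed, while as paired arrays 4 rose, among them the receptors Lifr (1.98) and Il6ra (1.92) and the target Junb (1.56). Immediate early genes had a positive difference for 22 of 23 and a median of 1.00, with 0 past the test. The median was 1.79 without SN_NFIA 1, 1.58 without SN_control 2 (2 rose) and 0.64 without SN_control 1. As paired arrays Fos (2.0), Junb (1.56), Ier3 (2.24), Atf3 (2.62) and Klf4 (1.66) rose. Hes1, a Notch effector, read -0.27 and 0.10 in SN_NFIA against -2.31 and -1.53 in SN_control (1.84 ± 0.35, adjusted p = 0.0656, limma). Of 19 Notch genes 0 passed, and as paired arrays Hes1 rose while Dll3 and Mfng fell. Of 18 retinoid genes Rbp4 alone passed, and the retinaldehyde dehydrogenase Aldh1a1, with 0.67 and 2.72 in SN_NFIA against -4.20 and -1.13 in SN_control (4.36), rose as paired arrays. All 5 genes of TAM receptor tyrosine kinases and their ligands were positive, with 0 past the test and a median of 0.95. Gas6, the ligand, read 5.68 and 5.29 in SN_NFIA against 1.15 and 3.35 in SN_control (3.24 ± 0.69, adjusted p = 0.0818). Of 15 interferon response genes 0 passed, and the median was 0.12. It was -0.14 without SN_control 1 and 0.67 without SN_control 2.

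The matrix and metabolic lists gave few calls. Lamb2, a laminin chain of basement membranes, read 2.52 and 2.61 in SN_NFIA against 0.60 and 0.45 in SN_control (2.04 ± 0.27, adjusted p = 0.0305, limma). It was the 1 of 36 genes on the collagen and matrix list to pass. Matrix genes outside that list also rose by the test. Among them, Col27a1 differed by 2.75 ± 0.35, Adamts8 by 2.23 ± 0.30 and Fbln1 by 1.70 ± 0.24, and Eln was at least 2.16-fold higher. The laminin receptor Itga7 read 2.71 and 3.80 in SN_NFIA against -2.06 and 0.51 in SN_control (4.03 ± 0.81, adjusted p = 0.0721), and it rose as paired arrays. Nqo1, a quinone reductase and NRF2 target, read -0.57 and -0.08 in SN_NFIA against -4.69 and -3.11 in SN_control (3.57 ± 0.53, adjusted p = 0.0408), the 1 of 19 antioxidant genes to pass. The glutathione transferases Gstm1 (2.09) and Gstt1 (2.71) rose as paired arrays. All 21 cholesterol synthesis genes had a negative difference, with a median of -0.81 and 0 past the test, and all 21 were negative in primary neurospheres too. As paired arrays 1 of the 21 fell. Phgdh, the first enzyme of serine synthesis and abundant in astroglia, read 5.82 and 6.10 in SN_NFIA against 3.97 and 4.41 in SN_control (1.77 ± 0.30, adjusted p = 0.0532). Ribosomal protein genes served as a level check, and all 20 overlapped between the groups (median 0.11, and -0.25 without SN_NFIA 2 to 0.54 without SN_NFIA 1). Of 9 CDK inhibitors, 15 DNA methylation genes, 22 hypoxia and glycolysis genes and 15 ependymal genes 0 passed, and of 18 Hedgehog genes Scube2 alone.

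**Figure D4:**
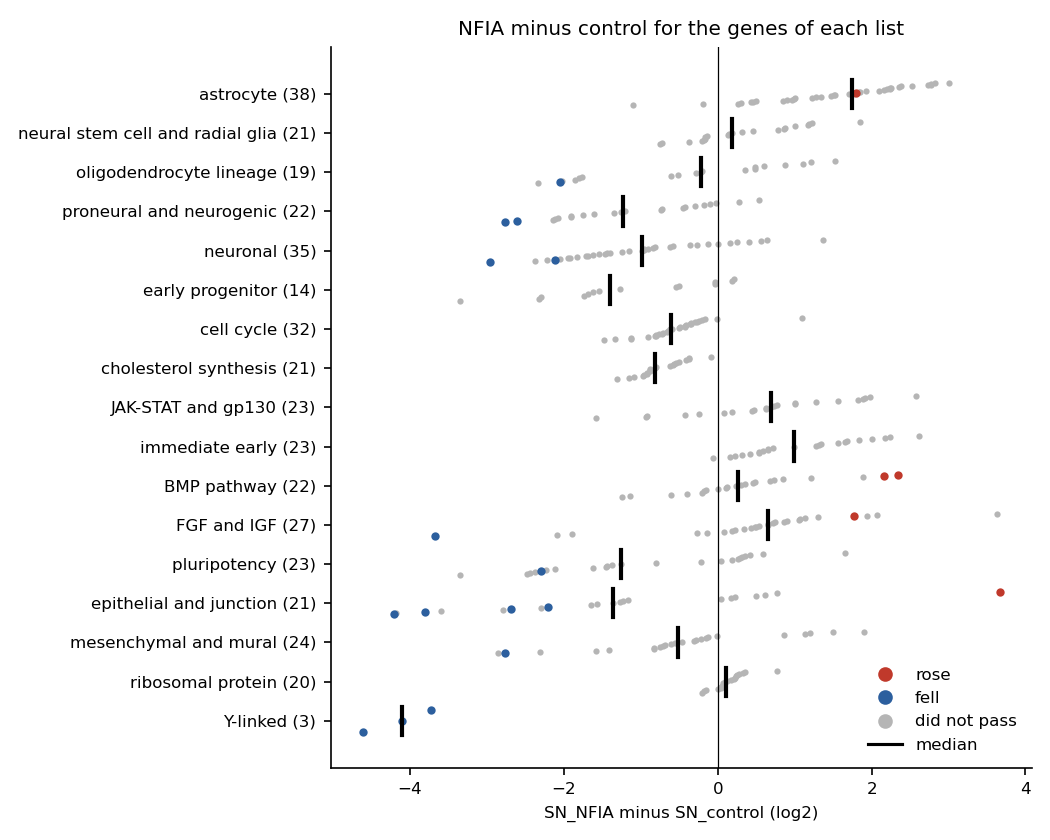
Difference between SN_NFIA and SN_control in log2 (x axis) for each gene of 17 lists, with the number tested in parentheses, black bars at medians and colour for genes past the test. Of 38 astrocyte genes 36 lie right of 0 with a median of 1.74, and most proneural, neuronal, early progenitor, epithelial and Y-linked genes lie left, with medians from -0.99 to -4.11.

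Most epithelial and junction genes were lower in SN_NFIA cells. Of 21 tested, 14 had a negative difference, 4 fell and 1 rose, and the median was -1.36. Cldn6, a claudin of embryonic epithelia, was at least 3.45-fold lower (adjusted p = 0.0286, limma), with -5.97 and -5.81 in SN_NFIA against -2.23 and -1.95 in SN_control. Cdh1, which encodes E-cadherin, read -2.60 and -2.90 in SN_NFIA against -0.71 and -0.38 in SN_control (-2.20 ± 0.33, adjusted p = 0.0414). Cldn3 was at least 2.65-fold lower (adjusted p = 0.0438), and the desmosomal cadherin Dsg1c read -3.02 and -2.85 in SN_NFIA against 1.48 and 1.07 in SN_control (-4.21 ± 0.50, adjusted p = 0.0256). In primary neurospheres Dsg1c differed by -1.53, unlike Cldn6 (1.59), Cdh1 (1.21) and Cldn3 (1.17). As paired arrays the keratins Krt8 (-3.60), Krt18 (-4.18) and Krt19 (-2.79) and the desmosomal linker Dsp (-2.29) fell too, which makes 8. Dsc2, also a desmosomal cadherin, rose by 3.67 ± 0.59 (adjusted p = 0.0486), a call that the paired fit did not make. The mean level of the list was -2.66 and -2.58 in SN_NFIA against -1.56 and -1.01 in SN_control, and 12 of the 21 were well above background on both SN_NFIA arrays, against 16 on both SN_control arrays. The median was -0.83 without SN_control 2. Without SN_control 1 the count that fell was 1, and without either SN_NFIA array 0.

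Pluripotency genes were split, with the larger share lower. Of 23 tested, 14 had a negative difference, and the median was -1.25. In 13 of the 23 both NFIA arrays lay below both control arrays, against 19.7% of all genes. Fgf4, a growth factor of the inner cell mass, read -2.55 and -2.28 in SN_NFIA against -0.31 and 0.08 in SN_control (-2.30 ± 0.31, adjusted p = 0.0346, limma), the 1 that passed. As paired arrays Pou5f1 (-2.44), Zfp42 (-2.12), Dppa4 (-1.45), Dppa5a (-2.37) and Lin28a (-3.35) fell as well, and Klf4 rose. Pou5f1, the factor OCT4, read -3.72 and -2.68 in SN_NFIA against -1.28 and -0.24 in SN_control, while Nanog overlapped between the groups (difference 0.04). The mean level of the list was -1.87 and -1.39 in SN_NFIA against -1.04 and -0.37 in SN_control. With genes well above background on all 4 secondary arrays alone, the median was 0.04, and without SN_control 2 it was -0.73. Of 24 mesenchymal and mural genes, 1 fell: Cnn1, the smooth muscle calponin, was at least 1.87-fold lower (adjusted p = 0.0169). Their mean level was 0.45 and 0.21 in SN_NFIA against 0.51 and 1.05 in SN_control. Endoderm genes had 1 of 9 past the test, Sox7, at least 1.66-fold higher (adjusted p = 0.0275), and blood and endothelial genes had 0 of 7 and 0 of 8. What part such cells have in the other results was not tested.

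In primary neurospheres most of these genes had a positive difference, 19 of the 21 epithelial and 21 of the 23 pluripotency genes. The epithelial list had a median of 1.09 there and the pluripotency list 0.57, against -1.36 and -1.25 in secondary neurospheres, and the mesenchymal list 1.40 against -0.51. Tested directly, a change of NFIA effect from primary to secondary neurospheres passed for 0 of 13790 genes in limma, with a lowest adjusted p of 0.0775. At an unadjusted p under 0.05 there were 931 genes, or 6.75% of those tested. They include 14 of the 21 epithelial genes and 11 of the 23 pluripotency genes, and 4 of the 38 astrocyte genes. Collagen and matrix genes gave 20 of 36 and mesenchymal and mural genes 11 of 24, so the pattern was not particular to epithelial and pluripotency genes. The collagen and matrix list had a median of -0.04 in secondary and 1.26 in primary neurospheres. Fgf4 differed by -2.30 in secondary and 1.47 in primary neurospheres, a difference of effect of -3.77 (adjusted p = 0.0775), and Cdh1 by -2.20 and 1.21 (adjusted p = 0.111). Fgf5 differed by -3.68 and 1.29 (adjusted p = 0.0785), and Cnn1 by -2.77 and 1.11 (adjusted p = 0.0775). Among the astrocyte genes Tnc, a matrix protein of young astrocytes, had a positive difference in both, 1.22 in secondary and 5.37 in primary neurospheres.

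**Figure D5:**
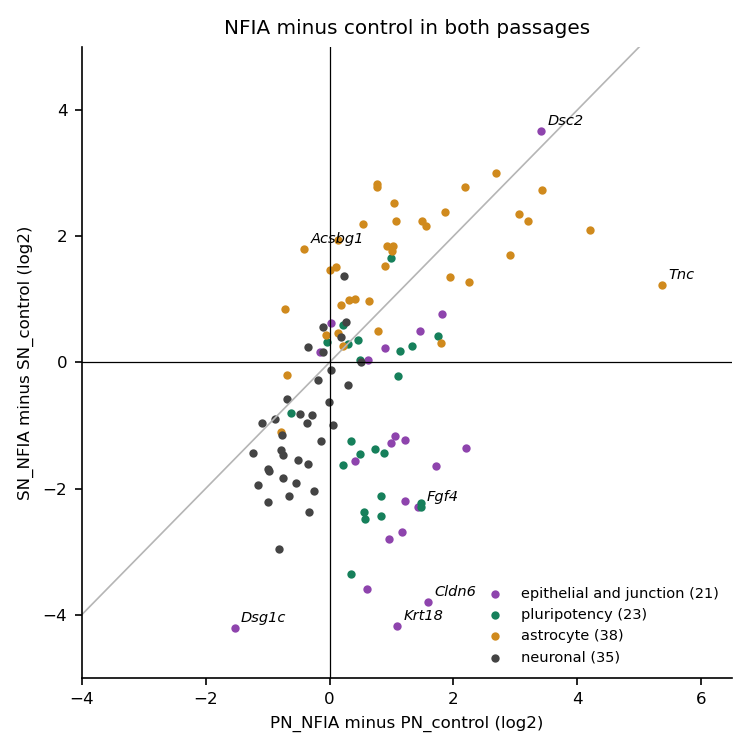
Difference between NFIA and control cells in log2 in secondary (y axis) against primary neurospheres (x axis) for 4 lists, with a line of equal differences. Most epithelial and pluripotency genes lie below 0 in secondary and above 0 in primary neurospheres, as with Fgf4 (-2.30 and 1.47), while most astrocyte genes lie above 0 and most neuronal genes below 0 in both.

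The 12 largest falls hold 3 kinds of profile over the arrays. Mogat2, an acyltransferase of triglyceride synthesis, read -6.26 and -6.05 in SN_NFIA against -0.76 and 1.14 in SN_control (at least 16.8-fold lower, adjusted p = 0.0286, limma), and did not differ by the test in primary neurospheres (0.34). Olfr1254, Dcstamp, Olfr487 and Cd160 were near the lowest signals in SN_NFIA and all primary arrays, between -6.79 and -6.07, and between -3.11 and -1.27 in SN_control. In all, 6 of the 62 genes that fell were well above background on both SN_control arrays and on no other array, these 4 with Mrgprb1 and Tcp10b. These 6 passed the filter on probes through SN_control alone, which by itself favours a lower reading in SN_NFIA. The share of all tested genes that entered in this way was not counted. Vmn1r197, Cpb2 and Dnajb8 were lower in SN_NFIA cells, with SN_control levels inside the range of the primary arrays. Vmn1r197, a vomeronasal receptor gene, read -2.97 and -3.94 in SN_NFIA against 1.52 and 1.01 in SN_control (-4.72 ± 0.50, adjusted p = 0.0195). Cpb2, a carboxypeptidase of plasma, read -1.55 and -2.85 in SN_NFIA against 1.68 and 1.51 in SN_control (-3.80 ± 0.42, adjusted p = 0.0221). Dnajb8, a heat shock co-chaperone, fell by 3.76 on the log2 scale (SE 0.55, adjusted p = 0.0408). The remaining falls of the 12, Cldn6 and Dsg1c above and Ddx3y and Uty below, belong to lists. Dsg1c had a profile close to that of Vmn1r197, with -0.36 and 0.80 in PN_NFIA and 2.34 and 1.17 in PN_control. Vmn1r197 read -0.17 and 0.63 in PN_NFIA, and 2.26 and 1.24 in PN_control. The cause of this likeness was not tested.

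Y-linked genes of wide expression fell together. Ddx3y, an RNA helicase gene, read -4.53 and -4.51 in SN_NFIA against 0.03 and 0.16 in SN_control (at least 15.7-fold lower, adjusted p = 0.0256, limma). Uty, a histone demethylase relative, read -6.27 and -6.10 in SN_NFIA against -1.88 and -2.27 in SN_control (at least 3.48-fold lower, adjusted p = 0.0294). Eif2s3y, a translation initiation factor gene, read -1.95 and -1.49 in SN_NFIA against 2.10 and 1.90 in SN_control (-3.72 ± 0.53, adjusted p = 0.0376). These were all 3 of the list that could be tested, and 3 of the 62 genes that fell. Without SN_NFIA 1, SN_NFIA 2 or SN_control 1, 0 of the 3 passed, with medians of -4.02, -4.19 and -3.91. They were lower in primary NFIA cells too, without passing the test, with differences of -2.07 for Ddx3y, -1.80 for Uty and -2.32 for Eif2s3y. Ddx3y read -1.03 and -2.89 in PN_NFIA, against 0.01 and 0.22 in PN_control. The testis genes Gm20736, Sly and Ssty1, members of families with many near-identical copies, read the other way, with differences of 3.43, 3.22 and 3.18 and no call. Their probes may not part the copies. Of the 3 X inactivation genes tested, Rlim, Jpx and Ftx, 0 passed, and their groups overlapped. Over the 19 autosomes the median difference lay between -0.07 and 0.04, and on the X chromosome it was -0.01. Whether the lines differed in their Y chromosome, or NFIA and control cells in what they express from it, cannot be told apart.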

How the data were processed

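RNA of sorted neurosphere cells was hybridised to 8 1-colour Agilent arrays. Spot intensity is the deposited processed signal, from Agilent Feature Extraction 10.5.1.1 per the file headers (10.7.3.1 per the submitters' processing notes). The authors' deposited value table holds log2 values with every probe centred on its own median (scale and direction matched the scanner signals) and was used to assign arrays to samples and as an alternative. Outlier, background and saturation flags are other values that the scanner software wrote, per the file headers. No saturation or depth estimate beyond these flags was made, and the number of arrays limits the precision.

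Here, log2 signals were set relative to the 75th percentile of each array, flagged outlier spots left out (126 probes lost), and spots of a probe averaged. A probe was kept where some group had both arrays well above background, and the brightest such probe stood for a gene. Of 55681 probes, 26056 were given a gene symbol by matching their transcript to RefSeq genes, and 3644 genes had several kept probes. All 4 groups were fitted together in limma 3.58.1 (R 4.3.3) with 4 residual degrees of freedom, and adjusted p is by Benjamini-Hochberg with a threshold of 0.05. Alternatives were quantile normalization, normexp (offset 50, on median signals since mean signals were not used here), other filters, the mean of probes, the value table, the 4 secondary arrays alone, a replicate block, and leaving out each array. Deviations of equally numbered arrays from their group means correlated at 0.484 in secondary and 0.445 in primary neurospheres over 13790 genes, and NFIA and control cells shared mixed spheres per the labels, so the numbers were taken as pairs. Tested on simulated data for this comparison over 13790 genes, the fit recovered 0%, 49.5% and 87.0% of 200 genes changed by 1, 2 and 4 in log2.

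Genes named are the 12 largest rises and falls that passed with separated groups, list members that passed, up to 4 list members with the smallest p, and fixed markers. Other names were chosen after their values were seen. Members and the 39 gene lists were chosen with earlier results of these data known. Some genes are not reported here.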

Additional observations from a re-analysis of the deposited data

How the results depend on the processing

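With 67 genes that rose and 62 that fell, the counts stayed within 1.5 times under quantile normalization, the mean of probes and the authors' value table. Normexp gave 149 and 55, no filter on dim probes 12 and 10 (with the median of all genes at -0.13), and probes well above background on all 4 secondary arrays 25 and 28. With no filter on dim probes, 0 astrocyte, proneural, neuronal, epithelial and pluripotency genes passed. In that setting 1 BMP and 1 Hedgehog gene rose and 1 mesenchymal gene fell. The 4 secondary arrays alone gave 0 and 0 in limma (1393 genes at an unadjusted p under 0.05), and the replicate block 380 and 266. Leaving out 1 array gave 4 to 282 genes that rose and 3 to 173 that fell, and 0 to 30 whose NFIA effect differed between passages, the 30 without SN_control 1. Scanner files as attached gave 0 and 0 in limma (522 at an unadjusted p under 0.05), and the line in the source name 0 and 42. Under all settings but the last 2, every called gene that was measured kept its direction. With files as attached 3 of 45 measured rises and 0 of 56 measured falls kept it, and by source name 0 of 67 and 0 of 56. The cause of these shifts was not tested. The replicate block ended 3 calls, Dsc2 among the rises and Epgn and a among the falls. Of genes named in the text, Jpx turned to -0.028 with normexp. Leaving out 1 array gave differences of -0.048 to 5.09 for Aqp4, -1.31 to 0.98 for Msi1, -0.96 to 0.62 for Nes, -3.17 to 0.48 for Neurog2 and -0.85 to 0.46 for Slc1a2. It gave -5.25 to 1.65 for Gpr17, -0.37 to 0.45 for Nanog and -0.28 to 0.55 for Pax6. Signal over background limits the 31 rises that no SN_control array and the 26 falls that no SN_NFIA array measured well above background. Their folds are bounds where a bound could be set. It could not for Ccdc68, Cldn20, Trpm5 and Slco1a4 among the rises and Tcp10b among the falls.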

Other observations

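Genes outside the lists also passed the test, and the ones given here were chosen after their values were seen. Cx3cl1, the chemokine fractalkine, read 4.10 and 4.42 in SN_NFIA against 1.27 and 1.04 in SN_control (3.1 ± 0.35, adjusted p = 0.0229, limma). Ccl2, which attracts monocytes, was at least 5.79-fold higher, and Ccl17, which attracts T cells, at least 7.71-fold. Pgf, placental growth factor, differed by 3.21 ± 0.40, and Angpt2, a ligand of the TIE2 receptor, was at least 2.05-fold higher. Both SN_NFIA arrays lay above both SN_control arrays for all 5. Of oxidising and detoxifying enzymes, Fmo1 differed by 2.99 ± 0.33, Fmo2 was at least 2.65-fold higher, and Aldh2 and the methionine sulfoxide reductase Msra differed by 1.57 ± 0.24 and 1.68 ± 0.25. Bag3, a co-chaperone of HSP70, rose by 1.52 ± 0.22, with 2.03 and 2.01 in SN_NFIA against 0.56 and 0.45 in SN_control, and by 1.76 in primary neurospheres.

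Some falls lay outside every list. Terc, the RNA template of telomerase, read -1.46 and -1.98 in SN_NFIA against 0.98 and 0.65 in SN_control (-2.54 ± 0.30, adjusted p = 0.0256, limma), with -0.48 in primary neurospheres. Nfya, the DNA-binding subunit of the NF-Y complex, read 0.62 and -0.17 in SN_NFIA against 2.52 and 2.14 in SN_control (-2.10 ± 0.33, adjusted p = 0.0438). Trim68, of the family of tripartite motif proteins, differed by -1.90 ± 0.26 in secondary and 0.01 in primary neurospheres.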
